A study of Gallus gallus with 8 samples.

Results

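Accessible chromatin was profiled with ATAC-seq, in which Tn5 transposase cuts and tags open DNA, in the retinal pigment epithelium (RPE) of chicken embryos, and 702 of the 89824 open regions of the series are described here. These are regions with a set minimum of signal in the developing RPE, here called already open. They gained signal after retinectomy and FGF2 at both stages studied. The authors called open regions in each library and merged them over all libraries, so a listed region need not have been called in developing RPE. Per kilobase, most of the 702 lay below the median open region before treatment, as given below. Accessibility is given as the normalized read count of a region, that is, the reads counted over the whole region divided by the size factor of its library. The 702 regions were selected on the measured group means themselves, so their levels and responses are a description, and calls of a fit on these same contrasts are given as counts from which nothing is read. With the mean of the 2 libraries of each group plus 1, the log2 ratio of treated to developing RPE (here the response) had to be at least 1 at E4 and at least 1 at E5, and the log2 ratio of E5 to E4 had to be under 1 in size in the developing and in the treated RPE. The mean of the 4 developing libraries had to be at least 150 normalized counts, the width at most 5000 bp, and the chromosome one of 1 to 28. Of the 83389 regions within these chromosome and width limits, 43419 reached the developing mean of 150, and 702 met every condition.

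The study compared 4 groups of 2 libraries, each library made from RPE sheets of 2 embryos. The groups were E4 6hPR+FGF2 and E4 RPE at embryonic day 4, and E5 6hPR+FGF2 and E5 RPE at embryonic day 5. In the 6hPR+FGF2 groups the neural retina was surgically removed (retinectomy), heparin beads carrying FGF2 were placed in the eye cup, and the RPE was collected 6 hours later. The RPE groups came from developing eyes with neither surgery nor beads, so the parts of surgery and FGF2 in a response cannot be told apart, and neither can any difference in handling between treated and untreated eyes. For all groups the labels name White Leghorn eggs, whereas the study's methods name SPAFAS eggs for ATAC-seq, and no sex is given. Each library holds many nuclei, so a site open in more nuclei and a site more open in each nucleus cannot be told apart either. Genome sequence and a full gene annotation of the GRCg6a build were not used here, so the labelled tissue could not be checked against marker genes, regions are given by their deposited GRCg6a coordinates, and no sequence is printed.

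The RPE is the pigmented sheet behind the neural retina. In the chick embryo it can be reprogrammed to neural retina by FGF signalling for a short time, which ends between the stages compared here. Open regions are mostly promoters and enhancers, where transcription factors displace nucleosomes. At an enhancer, accessibility can change in steps, since a site that is partly open in resting cells can take up further factors when a signal such as FGF, which acts through receptor tyrosine kinases and the MAPK cascade, reaches the cell.

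Across the 702 regions, the median signal was 554 and 725 normalized counts in the E4 6hPR+FGF2 libraries (replicates 1 and 2), against 242 and 234 in the E4 RPE libraries. At E5 it was 693 and 800.0 in the 6hPR+FGF2 libraries, against 236 and 236 in the RPE libraries. The 4 developing medians were thus close to each other, and the treated medians lay further apart, with E4 6hPR+FGF2 replicate 1 the lowest of them. The regions held 1.20% and 1.54% of the signal of all 83389 regions in the E4 6hPR+FGF2 libraries, against 0.492% and 0.489% in E4 RPE. They held 1.45% and 1.5% in E5 6hPR+FGF2, against 0.449% and 0.464% in E5 RPE. Ranked among the 83389 regions of the same library, the median member stood at the 79.6th to 83.1st percentile in the treated libraries, against the 60.7th to 62.0th percentile in the developing libraries. Between 53 and 119 members were in the top 10% of a treated library, against 1 or 2 in a developing library. The member with the fewest reads still had 149 to 366 reads in a treated library and 61 to 136 in a developing library.

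**Figure D1:**
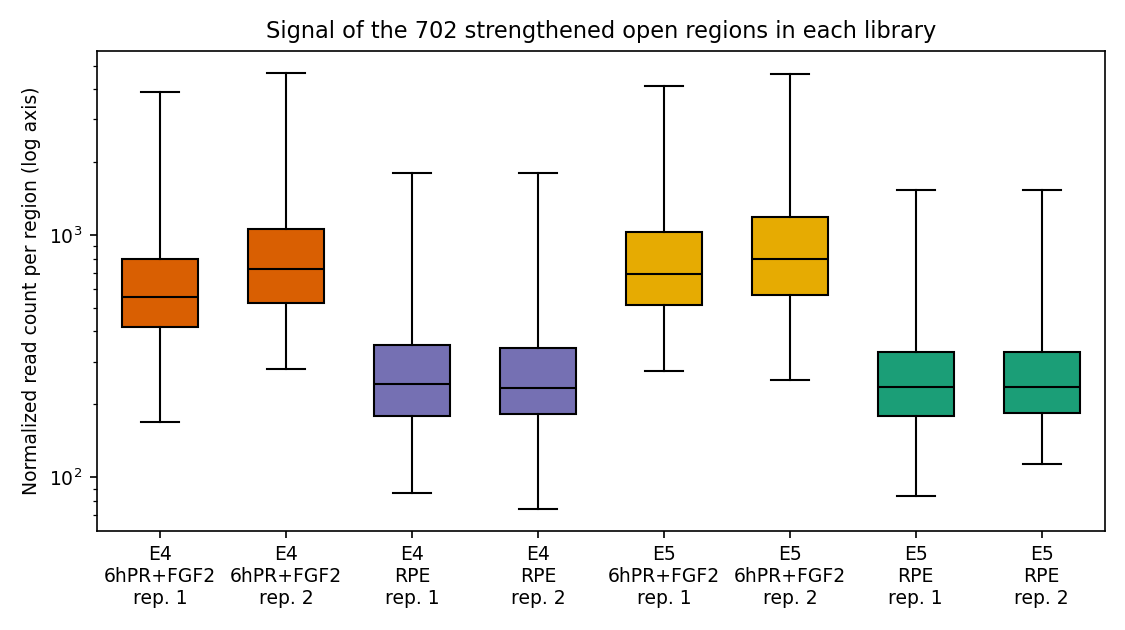
Normalized read counts (log axis) of the 702 regions in each of the 8 libraries, with the median as a line, the quartiles as a box and the lowest and highest region as whiskers. Medians were 554 to 800.0 in the 4 6hPR+FGF2 libraries, against 234 to 242 in the 4 RPE libraries.

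The response of the members had a median of 1.28 at E4 and 1.56 at E5 on the log2 scale, with ranges of 1.00 to 3.67 and 1.00 to 3.72. Only 46 regions had a response of at least 2 at E4, 117 at E5, and 37 at both. The smaller of the 2 responses was under 1.1 in 186 regions (26.5%), so that a large share lay just inside the limit. Over all 89824 regions the median response was -0.04 at E4 and -0.03 at E5. With every library scaled to the same total it moved to 0.07 and 0.04, and the members' medians then were 1.39 and 1.62. The distance of the members from all regions was 1.32 and 1.58 after this scaling, against 1.32 and 1.59 as deposited.

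Both treated libraries were above both developing libraries in 701 of the 702 members at E4, against 30.5% of all regions, and in all 702 at E5, against 33.9%. All 4 treated libraries were above all 4 developing libraries in 699 members, against 18.4% of all regions. In a limma fit of all 89824 regions, 700 members were called higher after treatment at E4 (background 10.4%), 702 at E5 (18.2%) and 700 at both (8.9%), with Benjamini-Hochberg adjustment and a threshold of 0.05. The rule used these same contrasts, so nothing is read from these counts. The 3 members whose libraries overlapped were a region on chromosome 1 from 4696730 to 4697500, one on chromosome 3 from 75687880 to 75688500 and one on chromosome 10 from 19016940 to 19017950. In the first, E4 6hPR+FGF2 replicate 1 held 185 normalized counts and replicate 2 held 550, against 147 and 208 in E4 RPE, so that its response at E4 rested on 1 library.

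The region with the largest response at both stages was on chromosome 11 from 474650 to 475700. It held 1074 and 2119 normalized counts in the E4 6hPR+FGF2 libraries, against 96.2 and 153 in E4 RPE, and 1977 and 2901 in the E5 6hPR+FGF2 libraries, against 180 and 187 in E5 RPE. Its responses were 3.67 at E4 and 3.72 at E5. Its treated and developing libraries lay far apart at both stages, and it started close to the limit of the rule, with a developing mean of 154.

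The next was on chromosome 19 from 4401630 to 4402700, with 1305 and 2172 counts in E4 6hPR+FGF2, against 156 and 228 in E4 RPE, and with 2170 and 2910 in E5 6hPR+FGF2, against 221 and 182 in E5 RPE. Its responses were 3.17 and 3.65. On chromosome 17, the region from 3120220 to 3121940 had 1669 and 2734 counts in E4 6hPR+FGF2, against 280 and 292 in E4 RPE, and 1560 and 2109 in E5 6hPR+FGF2, against 192 and 200 in E5 RPE. In both regions replicate 2 of each treated group was well above replicate 1, with no overlap between treated and developing libraries. On chromosome 7 from 23054360 to 23055540, the order of the stages was the other way round, with a response of 2.97 at E4 and 2.83 at E5. Its values were 807 and 1144 in E4 6hPR+FGF2, against 105 and 143 in E4 RPE, and 1176 and 1515 in E5 6hPR+FGF2, against 198 and 179 in E5 RPE.

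The members with the highest levels had smaller responses than the regions above. The highest treated mean, 4326 normalized counts, was on chromosome 23 from 5198200 to 5200990. This region held 3894 and 4678 counts in E4 6hPR+FGF2, against 1489 and 1796 in E4 RPE, and 4113 and 4618 in E5 6hPR+FGF2, against 1112 and 1192 in E5 RPE. The highest developing mean, 1464, was in the widest member, 4210 bp on chromosome 22 from 2800130 to 2804340. There the E4 6hPR+FGF2 libraries held 2544 and 3556 counts, against 1267 and 1574 in E4 RPE, and the E5 6hPR+FGF2 libraries 2908 and 3581, against 1533 and 1482 in E5 RPE. A region on chromosome 13 from 2703710 to 2706450 was similar, with 3117 and 3830 in E4 6hPR+FGF2, against 1803 and 1305 in E4 RPE, and 3101 and 3028 in E5 6hPR+FGF2, against 1428 and 1263 in E5 RPE. These 3 regions had responses of 1.1 to 1.38 at E4 and 1.11 to 1.92 at E5. The second widest member, 4010 bp on chromosome 5 from 38034370 to 38038380, responded by 1.03 and 1.46.

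**Figure D2:**
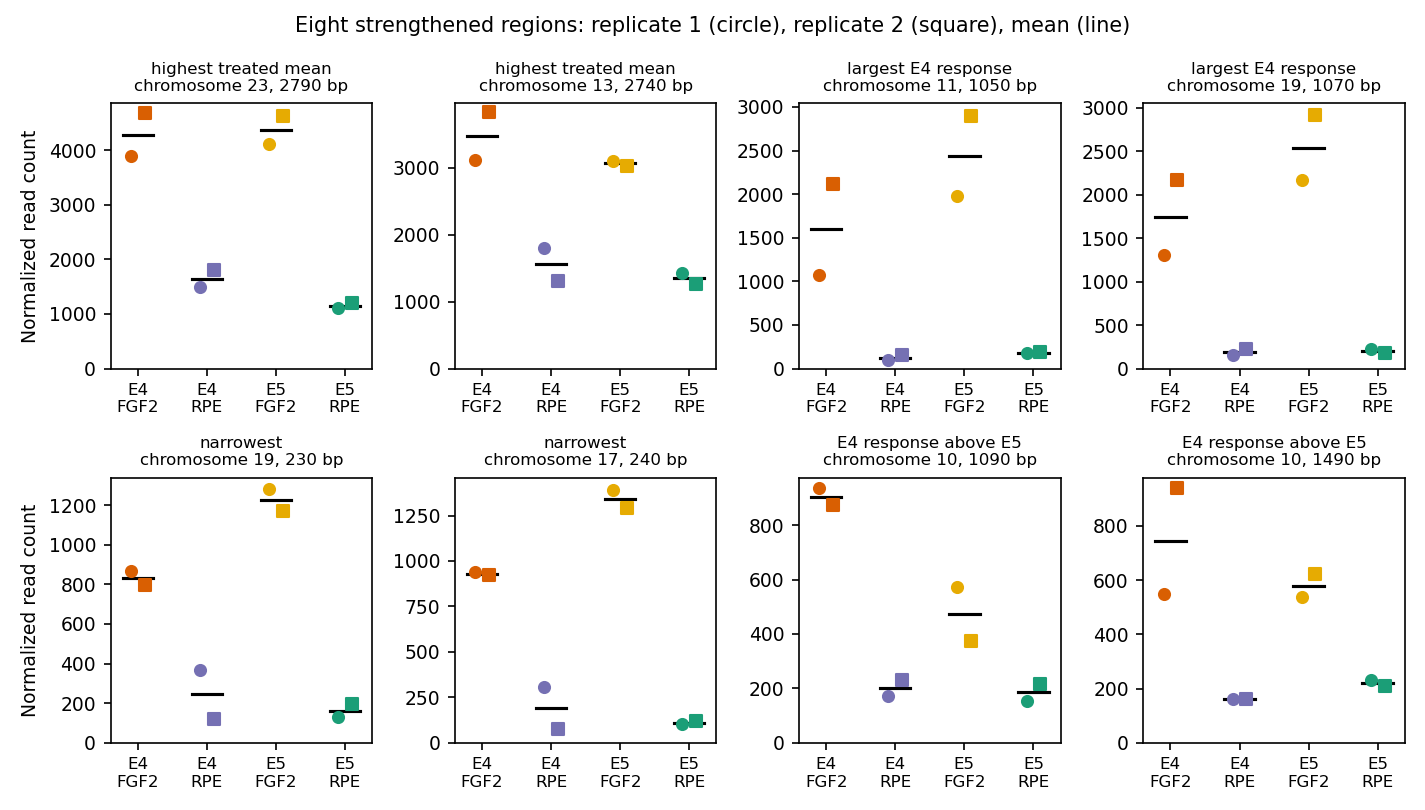
Normalized read counts of 8 named regions in each group, from the highest treated means and the largest E4 responses (top row) to the narrowest regions and those with an E4 response above the E5 response (bottom row). Circles are replicate 1, squares replicate 2 and lines the group mean. In the region of the largest response the treated libraries sit between 1074 and 2901 counts and the developing libraries between 96.2 and 187.

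Starting levels were modest, which bears on calling these regions already open. The developing mean had a median of 231 and a range of 150 to 1464, with 237 members (33.8%) under 200, 71 of at least 500 and 9 of at least 1000. All 4 developing libraries reached 150 in 527 members (75.1%). The limit of 150 was set on whole regions, and per kilobase the picture was lower. The median developing signal was 285 normalized counts per kb in the members, against 459 in all 43419 regions with a developing mean of at least 150 and 314 in all 83389 regions. It was above 314 in 292 members (41.6%) and above 459 in 103 (14.7%). After treatment the median was 796 per kb, against 445 and 335 in the same 2 sets, and 662 members (94.3%) were above 445. By density, then, most members were less open than the median open region before treatment, and nearly all were more open than it afterwards.

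The limits of the rule passed through a continuous range of values. Just inside the response limit were regions on chromosome 4 from 13691190 to 13691840 (1.00 at E4, 1.58 at E5), on chromosome 28 from 1008330 to 1009310 (1.00 and 1.58) and on chromosome 1 from 106531260 to 106531780 (1.00 and 1.64). Just outside it were regions on chromosome 23 from 2345090 to 2347500 (1.00 and 1.21), chromosome 13 from 18032250 to 18033080 (1.00 and 1.24) and chromosome 4 from 53558190 to 53558580 (1.00 and 1.16), whose E4 responses fell short of 1 before rounding. By level, the nearest inside had developing means of 150.04, 150.46 and 150.76, on chromosome 14 from 13333440 to 13334390, chromosome 17 from 5839260 to 5839500 and chromosome 2 from 17417740 to 17418370. The nearest outside, on chromosomes 4, 18 and 12, had 149.99, 149.94 and 149.85. Below this limit lay a much larger set of 3942 regions with the same response pattern, called gained regions here, whose median developing level was 47.4 and whose median treated level was 171. These were narrower regions, and by density the sets lay closer. Per kb the medians were 139 developing and 507 treated in the gained regions, against 285 and 796 in the members.

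To see whether the response held in libraries that did not choose the regions, the same rule was applied to the 4 libraries of 1 replicate number and the other 4 were read. Chosen on replicate 1, 434 regions met the rule, and in replicate 2 a response of at least 1 at both stages was again found in 360 of them (82.9%), against 7.28% of the 83389 regions. Their median responses in the libraries that were read were 1.53 at E4 and 1.67 at E5. Chosen on replicate 2, 1056 regions met the rule, of which 398 (37.7%) again reached 1 at both stages in replicate 1, against 5.18%. Their median responses there were 0.92 at E4 and 1.36 at E5, and 1045 of them (99.0%) were above 0 at both stages, against 35.0% of the 83389 regions. The direction thus carried over in nearly every region either way, whereas the size at E4 was smaller in replicate 1.

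The size of the response at E4 rested on which treated library was read. With E4 6hPR+FGF2 replicate 1 the median log2 ratio to the E4 RPE libraries was 1.11 and 1.14, and with replicate 2 it was 1.5 and 1.5. With the 702 regions held fixed, 484 would have reached a response of 1 at E4 without replicate 2, and 676 without replicate 1. At E5 the corresponding values were 1.47 and 1.46 for replicate 1 and 1.68 and 1.65 for replicate 2. Replicate 2 of E4 6hPR+FGF2 was the higher library in 600 members (85.5%), against 56.9% of the 83389 regions and 57.3% of 32305 stable regions, that is, regions with a developing mean of at least 150 in which none of the 4 ratios reached 1 in size. Among the gained regions it was 87.6%. In E5 6hPR+FGF2 replicate 2 was higher in 528 members (75.2%), against 55.15% of the 83389 regions, 64.9% of stable and 68.7% of gained regions. The members' share became 57.7% with equal library totals. The developing groups were near balance, with 371 members (52.8%) at E4 and 375 (53.4%) at E5. On the log2 scale, the SD of the 2 replicates had a median of 0.30 in E4 6hPR+FGF2 and 0.17 in E5 6hPR+FGF2, against 0.19 in E4 RPE and 0.10 in E5 RPE.

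At E4, differences between the replicates of members followed the width of the region. Among the 46 members over 2000 bp, E4 6hPR+FGF2 replicate 2 was higher than replicate 1 in all 46, with a median difference of 0.51 on the log2 scale, against a median of 0.06 in the 5211 regions of that width with a developing mean of at least 150. Among the 92 members of at most 500 bp it was higher in 48 (52.2%), with a median difference of 0.02. The E4 RPE libraries showed a different pattern. Replicate 2 was higher than replicate 1 in only 13 of the 92 narrow members (14.1%), with a median difference of -0.49, against 48.8% and -0.01 in the 3876 narrow regions with a developing mean of at least 150. In members of 1000 to 2000 bp it was higher in 162 of 236 (68.6%). In E5 6hPR+FGF2 replicate 2 was higher in 59.8% of members of at most 500 bp and 89.1% of those over 2000 bp. All regions of these widths with a developing mean of at least 150 had 57.8% and 79.8%. In E5 RPE the shares were 64.1% and 45.7% in members, against 52.4% and 35.3%. By the E4 RPE values, narrow members thus owed part of their developing level at E4 to 1 library.

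**Figure D3:**
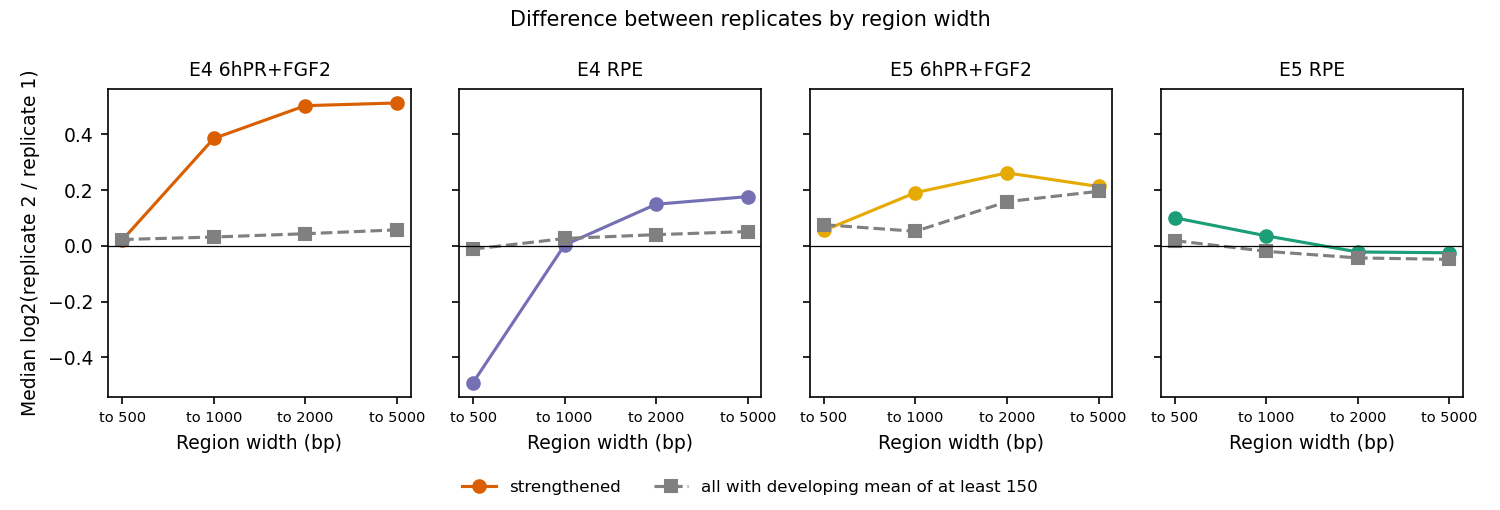
Median log2 ratio of replicate 2 to replicate 1 by region width, for the strengthened regions (solid lines) and for all regions with a developing mean of at least 150 (dashed lines), 1 panel per group. In E4 6hPR+FGF2 the median was 0.02 in strengthened regions of at most 500 bp and 0.51 in those over 2000 bp, and in E4 RPE it was -0.49 in the narrowest.

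The narrowest members show this directly. The 230 bp from 6130250 to 6130480 on chromosome 19 had 868 and 794 normalized counts in E4 6hPR+FGF2, against 369 and 120 in E4 RPE, and 1280 and 1172 in E5 6hPR+FGF2, against 132 and 193 in E5 RPE. The 240 bp from 5839260 to 5839500 on chromosome 17 had 937 and 923 counts in E4 6hPR+FGF2, against 308 and 74.2 in E4 RPE, and 1392 and 1290 in E5 6hPR+FGF2, against 102 and 117 in E5 RPE. In both, E4 RPE replicate 1 was at least 3 times replicate 2, and the treated libraries were close together. Both regions entered by their level only through E4 RPE replicate 1. The other 3 developing libraries were all under 150 in the second region, and their mean was under 150 in the first. These 2 regions also had the largest excess of the E5 over the E4 response, with 1.76 at E4 and 2.91 at E5 on chromosome 19, and 2.28 and 3.60 on chromosome 17. In both, E4 RPE replicate 1 raised the developing mean at E4 and so lowered the E4 response. The excess thus rested largely on 1 library.

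The response was larger at E5 than at E4 in 548 members (78.1%), against 50.8% of the 83389 regions, with a median difference of 0.24. This was so in 85 of the 92 members of at most 500 bp (92.4%) and in 33 of the 46 over 2000 bp (71.7%). In all regions with a developing mean of at least 150 the shares at these widths were 56.5% and 44.6%, so they also fell with width. Among the gained regions the share was 74.1%. Among regions of the same limits with responses of at most -1 at both stages it was 31.3%, with a median difference of -0.21. Those regions thus mostly fell further at E5. At a developing mean of at least 150, 950 regions reached a response of 1 at E4 and 2223 at E5, so the E4 limit was the tighter. In the narrow members E4 RPE replicate 1 was mostly above replicate 2, as given above. Whether this or the tighter E4 limit bears on the share was not tested. Over all members the share depended most on the E4 6hPR+FGF2 libraries. With the 702 regions held fixed it was 55.3% without replicate 1 and 91.7% without replicate 2, and it lay between 65.0% and 83.9% without any 1 of the other 6 libraries. In a test of the stage by treatment interaction with limma over all regions, 0 of the 702 members were called (background 0.00223%), 66 had an unadjusted p under 0.05, against 8269 of all 89824 regions, and edgeR and DESeq2 called 0 as well. The rule limited how far the responses could differ, and a p that misses the threshold does not show that they were equal.

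**Figure D4:**
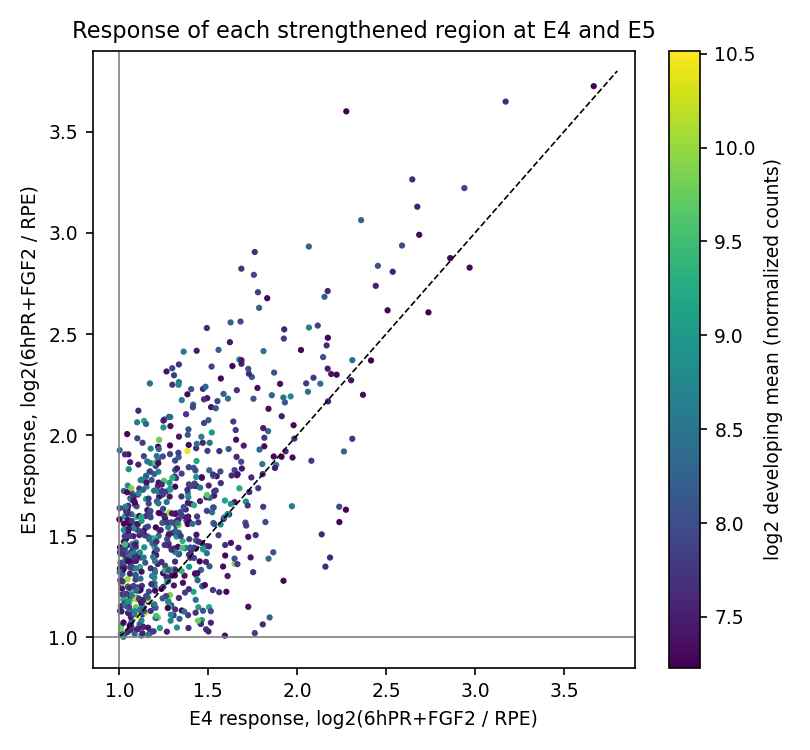
Response at E5 against response at E4 (log2 ratio of 6hPR+FGF2 to RPE) for each of the 702 regions, coloured by developing mean. Grey lines mark the limit of 1 on each axis and the dashed line equal responses. Of the regions, 548 lie above the dashed line and 37 have both responses of at least 2.

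The excess of the E4 over the E5 response was largest in the members given next. On chromosome 10 from 19010710 to 19011800, the E4 6hPR+FGF2 libraries held 936 and 873 counts, against 171 and 232 in E4 RPE, and the E5 6hPR+FGF2 libraries held 573 and 375, against 154 and 217 in E5 RPE. The treated libraries of the stages did not overlap in this region. On the same chromosome from 10841840 to 10843330, the values were 549 and 939 in E4 6hPR+FGF2, against 163 and 163 in E4 RPE, and 538 and 621 in E5 6hPR+FGF2, against 231 and 209 in E5 RPE. There the treated libraries of the stages did overlap. Their responses were 2.16 and 2.18 at E4 and 1.35 and 1.40 at E5.

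Between the stages, the log2 ratio of E5 to E4 had a median of -0.04 in developing RPE and 0.25 in treated RPE, and both ratios were within 0.5 in 492 members (70.1%). In treated RPE the median was 0.05 over the 83389 regions, 0.07 in stable and 0.27 in gained regions, so the gained regions shared it. By limma over all regions, 6 members were called between stages in developing RPE (background 4.16%), 1 higher and 5 lower at E5. In treated RPE 8 were called (background 4.60%), all higher at E5. The rule removed regions with a stage ratio of 1 or more, so nothing is read from these counts, and they moved with single libraries. Without 1 library, the first count was 0 for E4 RPE replicate 1 or either E5 RPE library left out and 10 for E4 6hPR+FGF2 replicate 1. The second was 0 for E4 6hPR+FGF2 replicate 1 or E5 6hPR+FGF2 replicate 2 left out, 1 for either E5 RPE library, 24 for E4 6hPR+FGF2 replicate 2 and 17 for E5 6hPR+FGF2 replicate 1. With the replicate number as a block the counts were 25 in developing and 41 in treated RPE, with DESeq2 22 and 52, and without chromosomes Z and W 15 and 25. The share over all regions was taken for the main fit only. Whether the members moved more than other regions under these settings is therefore not known.

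The members were found more often on small chromosomes. Chicken chromosomes include a few large ones and many microchromosomes, which are rich in genes and in GC. Of the 702 regions, 255 (36.3%) lay on chromosomes 1 to 5, 140 (19.9%) on chromosomes 6 to 10 and 307 (43.7%) on chromosomes 11 to 28. Among all regions with a developing mean of at least 150, 30.6% lay on chromosomes 11 to 28. The share was 35.3% in gained, 32.9% in stable and 14.6% in 2096 reduced regions, that is, regions that met the same limits with responses of at most -1 at both stages. Per 1000 regions with a developing mean of at least 150 there were 16.2 members on all chromosomes together. The figure ran from 7.86 on chromosome 3 and 9.26 on chromosome 2 to 38.8 on chromosome 27 and 41.1 on chromosome 22, with 30.9 on chromosome 10. The share on chromosomes 11 to 28 stayed between 42.2% and 46.8% under the alternatives to the rule that kept all libraries. These shares were not tested, since regions are not replicates. Other regions also responded more on small chromosomes. At 100000 bp or more from any member, the median limma response on chromosomes 11 to 28 was 0.08 at E4 and 0.09 at E5. On chromosomes 1 to 5 it was -0.17 and -0.21.

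Members had a median width of 895 bp, with quartiles of 650 and 1240 bp. This was close to the 960 bp of all regions with a developing mean of at least 150 and to the 790 bp of reduced regions, and far above the 320 bp of gained regions. The level limit, set on whole regions, separates the strengthened from the gained regions, so their widths are not independent of the rule. The nearest open region of any kind lay at a median of 1665 bp from a member, against 2010 bp from stable, 2210 bp from gained and 3515 bp from reduced regions. Another open region lay within 1000 bp of 34.5% of members, against 31.7% of stable, 27.2% of gained and 19.2% of reduced regions and 28.4% of all 83389 regions. These distances were not tested.

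The open regions around the members, which did not meet the rule, were read next. The 82687 other regions on chromosomes 1 to 28 were grouped by distance to the nearest member. Within 1000 bp, 304 regions had a median response of 0.43 at E4 and 0.40 at E5, and 68.1% were above 0 at both stages. At 5000 to 10000 bp, 1078 regions had medians of 0.27 and 0.30, and at 50000 to 100000 bp, 6234 regions had 0.10 and 0.13. At 100000 bp or more, 67333 regions had medians of -0.10 and -0.09, with 34.4% above 0 at both stages. The response of surrounding regions thus fell off with distance at both stages, while staying far below that of the members. Among the nearest regions, the 155 with a developing mean of at least 150 had medians of 0.28 and 0.23, against -0.16 and -0.17 in 34192 such regions at 100000 bp or more. Regions that met the rule were themselves left out, which lowers the values near to members. Regions with both responses of at least 1 that missed another limit stayed in, which raises them. These made up 13.8% of the regions within 1000 bp, against 4.88% at 100000 bp or more.

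**Figure D5:**
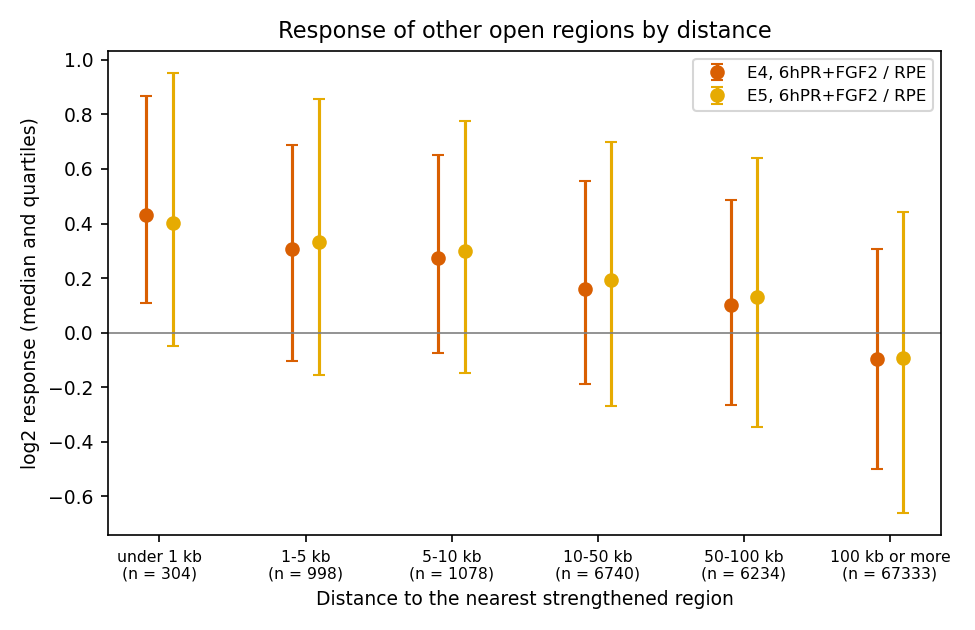
Log2 response (ratio of 6hPR+FGF2 to RPE) at E4 and E5 of open regions other than the 702, by distance to the nearest of them. Points are medians and bars quartiles over regions. Medians fell from 0.43 at E4 and 0.40 at E5 under 1 kb to -0.10 and -0.09 at 100 kb or more.

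The limma calls over all regions showed the same order. They use the same 8 libraries and contrasts as the responses, so they restate that order and add no separate support. Within 1000 bp of a member, 29.9% of the other regions were called higher after treatment at E4 and 34.2% at E5, against 8.36% and 16.1% at 100000 bp or more and against backgrounds of 10.4% and 18.2%. Lower calls ran the other way, with 1.32% and 6.58% within 1000 bp, against 10.7% and 21.5% at 100000 bp or more. Since members were frequent on small chromosomes, the distances were also read within chromosome classes. This reading was added after the data were seen. On chromosomes 1 to 5 the median limma response was 0.41 at E4 and 0.38 at E5 within 1000 bp, against -0.17 and -0.21 at 100000 bp or more. On chromosomes 6 to 10 it was 0.40 and 0.34, against -0.08 and -0.10, and on chromosomes 11 to 28 it was 0.48 and 0.41, against 0.08 and 0.09. Between these ends the order was not even. On chromosomes 6 to 10 the medians were 0.07 and -0.02 at 5000 to 10000 bp, below the 0.11 and 0.11 at 10000 to 50000 bp, and on chromosomes 1 to 5 they were 0.16 and 0.13 at 1000 to 5000 bp, below the 0.26 and 0.25 at 5000 to 10000 bp.

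As 1 value per library, the signal in the 2383 other regions within 10000 bp of a member was taken as a share of the signal in all other regions on chromosomes 1 to 28. It was 3.4% and 3.51% in E4 6hPR+FGF2, against 2.92% and 2.91% in E4 RPE, and 3.52% and 3.36% in E5 6hPR+FGF2, against 2.92% and 2.97% in E5 RPE. All 4 treated libraries were above all 4 developing ones. The share averaged 3.45% ± 0.08 in treated and 2.93% ± 0.03 in developing libraries (SD, n = 4 each), a difference of 0.517 percentage points. It was also higher in treated libraries within 5000 bp and within 50000 bp, by 0.292 and 1.46 percentage points. No p is given, since the members that define these neighbours were chosen on the same 8 libraries. The share was not taken within chromosome classes. Members were frequent on small chromosomes, where regions far from any member also responded more. How much of the difference goes with chromosome class was not tested.

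Most members lay alone. Another member was within 20000 bp of 123 of the 702 (17.5%), the same share as among the 2096 reduced regions (17.5%). It was below those among the gained (32.6%) and stable regions (82.8%). Each of these sets is more numerous than the members, which raises such a share. The nearest other member was at a median of 152650 bp. The 123 formed 56 runs, 47 of 2 members and 9 of 3 or more. A run on chromosome 9 from 8392320 to 8416800 held 4 members among 6 open regions, with median responses of 1.37 at E4 and 1.97 at E5. Its most accessible open region that was not a member, from 8406410 to 8408580, had a developing mean of 890 and responses of -0.34 and 0.13, so members and a region without such a response alternated within 24480 bp.

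The run on chromosome 19 from 7486480 to 7518990 held 4 members among 9 open regions. Its first member, from 7486480 to 7488530, held 921 and 1579 counts in E4 6hPR+FGF2, against 168 and 229 in E4 RPE, and 1512 and 2176 in E5 6hPR+FGF2, against 199 and 183 in E5 RPE. Its last member, from 7515540 to 7518990, held 2112 and 3263 in E4 6hPR+FGF2, against 858 and 855 in E4 RPE, and 2329 and 3443 in E5 6hPR+FGF2, against 1192 and 1049 in E5 RPE. A further region in this run, from 7509410 to 7511630, missed the rule by its E4 response of 0.95 with 1.14 at E5, and another, from 7491300 to 7491560, went down, with -0.60 and -2.06 at a developing mean of 70. The run on chromosome 1 from 93745120 to 93760370 held 3 members among 5 open regions. Its members had responses of 1.09 to 1.53 at E4 and 1.45 to 1.70 at E5, and between them a region from 93748890 to 93750920 with a developing mean of 2129 had responses of -0.24 and -0.26.

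Gene names were at hand only for 17 members on chromosome 1, from the parts of the study's supplementary annotation that were held, and 9 of these carried a symbol of the gene with the nearest transcript start. Nearness to a start does not show which gene a region acts on. The largest responses among the 9 were at a region from 15136030 to 15137090, annotated as a transcript end and nearest to LAMB1, which encodes a laminin chain of the basement membrane on which the RPE rests. It held 662 and 710 normalized counts in E4 6hPR+FGF2, against 99.0 and 165 in E4 RPE, and 529 and 1243 in E5 6hPR+FGF2, against 205 and 179 in E5 RPE. The groups did not overlap at either stage, although replicate 2 of E5 6hPR+FGF2 was well above replicate 1.

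Regions nearest to OLIG2, RUNX1 and PLXNA4 had responses near the lower limit at E4. So did those nearest to ABCG1, ELAPOR2 and NAMPTP1, given below. The region from 106531260 to 106531780 was annotated as intergenic and nearest to OLIG2, a basic helix-loop-helix factor of spinal cord progenitors and oligodendrocytes. It held 636 and 665 counts in E4 6hPR+FGF2, against 354 and 295 in E4 RPE, and 797 and 793 in E5 6hPR+FGF2, against 252 and 257 in E5 RPE. A region from 107477530 to 107479090, annotated as intronic and nearest to RUNX1, which encodes a factor known from blood formation, held 421 and 636 counts in E4 6hPR+FGF2, against 245 and 267 in E4 RPE, and 667 and 743 in E5 6hPR+FGF2, against 309 and 323 in E5 RPE. The region from 2859780 to 2860480 was annotated as intergenic and nearest to PLXNA4, a plexin that acts as a semaphorin receptor in axon guidance. It held 565 and 653 counts in E4 6hPR+FGF2, against 266 and 306 in E4 RPE, and 626 and 906 in E5 6hPR+FGF2, against 255 and 230.0 in E5 RPE. The regions nearest to OLIG2, RUNX1 and PLXNA4 had responses of 1.00, 1.04 and 1.09 at E4 and of 1.64, 1.15 and 1.66 at E5.

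The most accessible of the 9 was a region from 110631120 to 110632530, annotated as intronic and nearest to ABCG1, a transporter that exports cholesterol, with 1010 and 1217 counts in E4 6hPR+FGF2, against 563 and 495 in E4 RPE, and 1477 and 1650 in E5 6hPR+FGF2, against 637 and 678 in E5 RPE. The only one of the 9 annotated as a promoter was at DHRS4, which encodes a dehydrogenase that can act on retinoids, from 71730 to 72430. It held 538 and 483 counts in E4 6hPR+FGF2, against 242 and 162 in E4 RPE, and 527 and 439 in E5 6hPR+FGF2, against 152 and 169 in E5 RPE. Regions nearest to ELAPOR2, NAMPTP1 and gga-mir-6659 had responses of 1.04, 1.00 and 1.39 at E4 and 1.53, 1.13 and 1.67 at E5. In the 8 members without a symbol the responses ran up to 2.54 at E4 and 2.81 at E5, in a region from 3858090 to 3859450. It held 836 and 1408 counts in E4 6hPR+FGF2, against 191 and 194 in E4 RPE, and 1170 and 1293 in E5 6hPR+FGF2, against 168 and 182 in E5 RPE.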

How the data were processed

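Per the study's methods, the authors trimmed ATAC-seq reads with Cutadapt and Trim Galore, aligned them to GRCg6a with Bowtie2 with up to several alignments per read, removed duplicates with Picard, called open regions per library with HMMRATAC, merged them with BEDTools and counted reads with featureCounts without regard to strand. The sources used here give neither tool versions nor any shift of reads for Tn5. The deposited values are a signal, read counts per open region divided by DESeq2 size factors, for 8 libraries that were not pooled. Dividing by 1 step per library returned whole reads for 100% of values (tolerance 1e-06), in all 25233633 to 72884966 reads in open regions per library and size factors of 0.544 to 1.45. This is depth within open regions only. It was lowest in E5 6hPR+FGF2, with 25233633 and 33925829 reads, against 72884966 and 60935269 in E5 RPE. At E4 it was 64716670 and 59446882 in 6hPR+FGF2, against 34595299 and 59076807 in RPE. The sources used here do not say whether region starts are 0-based or 1-based.

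The rule was applied to the deposited values. limma 3.58.1 in R 4.3.3 was fitted to log2(value + 1) of all 89824 regions with 4 group means in 1 fit, a trend and two-sided Benjamini-Hochberg adjusted p-values. The count tools were edgeR 4.0.16 and DESeq2 1.42.0 on the recovered reads. Fold changes on this scale understate changes at low signal. limma was tested on simulated data. That run covered the E4 treatment contrast only, not the stage or interaction contrasts, and it missed most changes of 1 log2 unit. Replicates are libraries of separate embryos, numbered by their labels, so p-values measure the spread between pools of 2 embryos. Regions were named as those extreme in level, response, difference of responses or width, those next to the limits, the 3 runs with most members, and members with a gene symbol in the study's annotation of open regions. The symbols RUNX1, OLIG2 and ABCG1 came from its annotation of peak summits, which was added later. The members and lists were chosen with earlier results of these data known. The planned motif, sequence and marker checks were not run, because GRCg6a sequence and a full annotation were not used here. A planned permutation test of the neighbour share is not reported, because the members that define the neighbours were chosen on the same libraries.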

Additional observations from a re-analysis of the deposited data

How the results depend on the processing

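The number of members was 702 under the rule. It was 1201 and 226 with developing minimums of 100 and 300 normalized counts in place of 150, and 109 when the minimum was set per kb, 103 of them among the 702. It ran from 434 (without replicate 2 in any group) to 1056 (without replicate 1 in any group), and from 494 to 877 when 1 library was left out. After scaling to equal totals 924 regions met the rule, 669 of them among the 702. Calls higher after treatment at E4, E5 or both stayed within 1.5 times under all alternatives run, with the lowest at E4, 518, without E4 6hPR+FGF2 replicate 2. Where a group was left with 1 library, the fit assumes that it varies like the others. In the interaction 0 members were called under each of the 17 alternatives run. Calls between stages in developing RPE (6) became 11 with quantile normalization, 15 without chromosomes Z and W, 22 with DESeq2 and 25 with the replicate number as a block, and ran from 0 to 10 when 1 library was left out. Those in 6hPR+FGF2 RPE (8) became 5 with equal totals, 0 in the fit of the 4 libraries alone, 25 without Z and W, 52 with DESeq2 and 41 with the replicate block, and ran from 0 to 24 when 1 library was left out. Shares over all regions were not taken under these alternatives, so such changes are not read as particular to the members. The cause was not tested. The replicate block moved no other call count by over 1.5 times. Labels share numbers only. The correlation across regions of same-numbered deviations was 0.33 between the E4 groups and 0.04 between the E5 groups over the 83389 regions, and 0.50 and -0.06 over the members. Between the treated groups it was 0.17 and 0.37. The share of members higher in E5 6hPR+FGF2 replicate 2, a reading added after the data were seen, became 57.7% with equal totals and 61.5% with quantile normalization. The neighbour share was higher in treated libraries under all 3 alternatives, and without reduced regions the difference was 0.470 percentage points. No alternative left out the gained regions or took the share within chromosome classes.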
